A study of Mus musculus with 80 samples.

Results

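The genes described are 35 that encode lysosomal hydrolases, lysosomal membrane proteins, subunits of the V-ATPase proton pump and a pair of transcription factors of the lysosome. They were chosen by name, with earlier results of these data known. They are 7 cathepsins and peptidases, 8 glycosidases and lipid-handling proteins, 5 membrane proteins and 2 factors of the MiT/TFE family. The rest are 7 V0 and accessory subunits and 6 V1 subunits of the V-ATPase. The male expression data hold all 35 and the female data hold 34, without Gla, out of 12957 genes listed in either table. The gastrocnemius, the large muscle of the calf, was taken from female and male C57BL6/J mice for RNA sequencing after hindlimb unloading, a model in which the hind legs bear no weight. Female mice were unloaded for 24, 48, 72 or 168 h, with 8, 8, 8 and 7 libraries, and 8 libraries came from female control mice at 0 h. Male mice were unloaded for the same times, with 8, 9, 9 and 8 libraries, and 7 libraries came from male control mice at 0 h. No transgene, drug or other allele is named for any group, and the labels give no age. Each library is listed as a separate sample, and replicates are numbered in the order of the sample records. P-values measure the spread between these libraries, which may be technical in part.

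Lysosomes break down proteins, lipids and carbohydrates that reach them by endocytosis and autophagy. Their hydrolases need an acid interior, which the V-ATPase maintains by pumping protons across the lysosomal membrane, its V1 sector splitting ATP and its V0 sector carrying the protons. TFEB and TFE3 are transcription factors known to act on many lysosomal genes through a short palindromic promoter motif, and in skeletal muscle cathepsin L is among the genes known to go up in several kinds of atrophy.

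Promoter windows from RefSeq (GRCm38.p6, 250 bases before to 50 after each listed start) were found for 29 of the 35 genes. The motif TCACGTGA, which reads the same on both strands and contains the shorter CACGTG, is within the windows of 7 of those 29 genes (24.1%) and of 304 of 27025 genes with a window (1.12%). CACGTG, within the longer motif or apart from it, is in the windows of 12 of the 29 (41.4%) and of 8.09% of all genes. The 40 bases around the longer motif are shown for those 7 genes, because they include members called higher and members called lower in the unloaded muscle. Capitals mark TCACGTGA, each sequence is written 5′ to 3′ on the strand of its gene, and Ctsa and Gla each hold a second copy that is not shown.
Ctsd (chr7:142387903-142387942, minus strand): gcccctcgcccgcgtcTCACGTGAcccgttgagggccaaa
Mcoln1 (chr8:3500457-3500496, plus strand): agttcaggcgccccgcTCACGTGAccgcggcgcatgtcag
Atp6v0e (chr17:26676382-26676421, plus strand): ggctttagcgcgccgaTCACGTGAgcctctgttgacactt
Atp6v0d1 (chr8:105566045-105566084, minus strand): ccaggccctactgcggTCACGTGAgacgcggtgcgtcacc
Atp6v1a (chr16:44139368-44139407, minus strand): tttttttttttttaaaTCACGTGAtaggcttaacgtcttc
Ctsa (chr2:164833761-164833800, plus strand): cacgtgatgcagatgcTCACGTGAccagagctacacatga
Gla (chrX:134601177-134601216, minus strand): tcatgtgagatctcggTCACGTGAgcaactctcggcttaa
The first 5 of these genes were called higher in at least 1 comparison described here, and Ctsa and Gla were called lower in at least 1. A match is a stretch of letters, and binding was not measured. Ctsb, Aga, Npc1, Atp6v1b2, Atp6v1c1 and Atp6v1h have no window in the table used.

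Values are a normalised signal, the authors' estimated reads per gene divided by a size factor per library, so a gene's levels can be compared within a sex but not between the sexes, whose tables were normalised separately. Estimated depth was 5.57 to 50.5 M reads in females and 18.0 to 49.7 M reads in males. It counts only reads of the genes listed for each sex and rests on an inferred value of 1 read. Female libraries at 24 h (6.42 to 11.8 M) and 72 h (5.57 to 9.63 M) were shallower than those at 0 h (25.7 to 50.5 M) and 48 h (26.3 to 48.0 M), with 168 h between them (13.3 to 24.6 M). Library titles carry 2 running numbers whose meaning the labels do not give, so the runs named here are inferred. In females the second number goes from 1 to 16 at 48 h and 0 h, each once. It goes from 3 to 24 at 72 h, from 27 to 48 at 24 h and from 50 to 62 at 168 h. Some numbers at 72 h also occur at 0 h or 48 h. The 0 h and 48 h libraries were taken as a run, and those at 24 h and 72 h as another. Under this reading, time and numbering cannot be told apart at 24, 72 and 168 h. Male runs were set by the first number. In males the 0 h and 168 h libraries share a run with 2 of the 9 libraries at 72 h, while none at 24 or 48 h does. Female 48 h and male 168 h against 0 h are therefore the comparisons with 0 h within a single run. A median Spearman correlation under 0.95 with the rest of their group set apart 7 female libraries, namely 0 h replicate 7, 24 h replicates 1 and 2, 48 h replicate 5, 72 h replicates 2 and 5, and 168 h replicate 7. No male library was set apart. The 8 muscle fibre markers had a summed signal of 1196083 to 3090346 in female and 3057419 to 5838362 in male libraries, and none was at 0 throughout a group.

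A change was called when the adjusted p of limma, fitted on log2 of the signal plus 1 over all genes of a table, was under 0.05. The number of listed members called higher was largest on the first days. In females 14 of 34 were higher and 0 lower at 24 h. The counts were 17 higher and 2 lower at 48 h, and 16 higher and 1 lower at 72 h. By 168 h, 4 were higher and 0 lower. Among all 11068 female genes, 13.8% were called higher and 10.9% lower at 24 h, and 21.0% higher and 17.1% lower at 48 h. The shares were 16.8% and 13.2% at 72 h, and 6.30% and 4.38% at 168 h. In males 14 of 35 were higher and 2 lower at 24 h, and 16 were higher and 2 lower at 48 h. At 72 h, 6 were higher and 0 lower. By 168 h, 4 were higher and 2 lower. Among all 12853 male genes, 14.8% were called higher and 14.4% lower at 24 h, and 16.3% higher and 14.7% lower at 48 h. The shares were 5.61% and 5.22% at 72 h, and 11.0% and 11.5% at 168 h. The share of the listed members called higher was above that of all genes at 24, 48 and 72 h in both sexes. At 168 h it was above that of all genes in females and near it in males. Because the members were chosen with earlier results of these data known, these shares describe the list and were not tested. The smaller counts were unsteady. The female count at 168 h was 1 without control replicate 1, 2 without control replicate 4 or 168 h replicate 1 or 7, and 11 with array weights. The male count at 72 h was 3 without control replicate 2 or 72 h replicate 1, and 2 without control replicate 4.

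The median log2 change of the members was 0.28, 0.22, 0.26 and 0.14 in females and 0.14, 0.15, 0.07 and 0.08 in males at 24, 48, 72 and 168 h. That of all genes was 0.06, 0.06, 0.03 and 0.05 in females and stayed within 0.01 of 0 in males. The numbers of members called higher in both sexes were 12, 15, 6 and 3 at 24, 48, 72 and 168 h, and no member was called in opposite directions in the sexes at any time. Of the 35 genes, 20 were called higher at least once against 0 h, 6 were called lower at least once, and 9 were never called. The matching shares of all genes, for both sexes together or for any time, were not counted, so these numbers have no background here. In the authors' deposited table, at an FDR under 0.05, 15, 18, 17 and 4 members were higher in females and 14, 17, 7 and 4 in males at 24, 48, 72 and 168 h, with 0, 2, 1 and 0 lower in females and 2, 2, 1 and 2 lower in males. Over all genes the authors' deposited table has 17.2, 24.7, 19.5 and 8.39% higher in females and 15.3, 17.0, 6.3 and 11.9% higher in males at those times, and 11.6, 19.7, 13.5 and 6.38% lower in females and 15.0, 15.2, 6.24 and 11.9% lower in males.

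**Figure D1:**
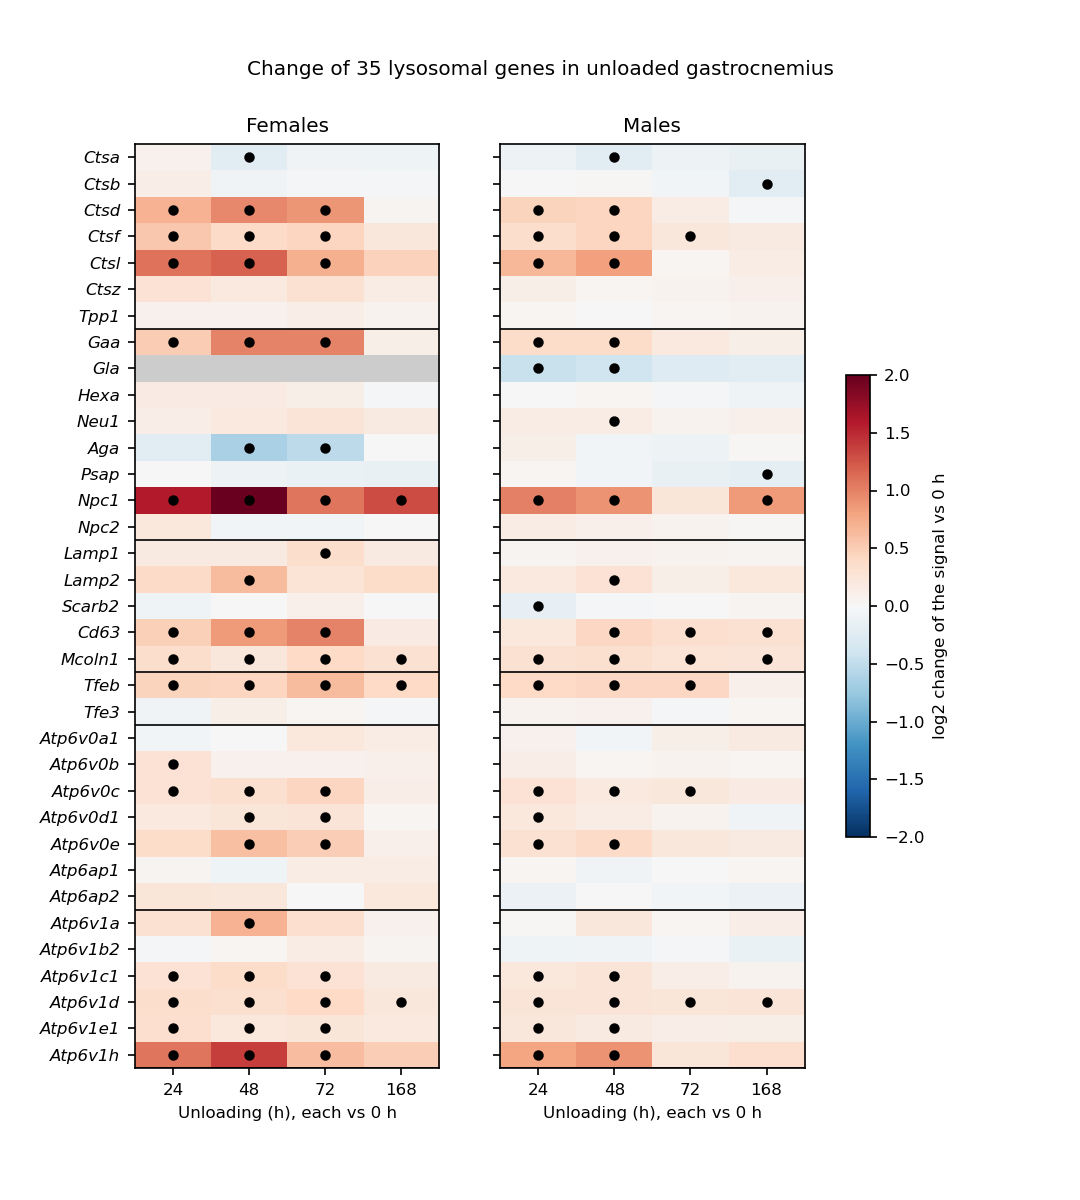
Log2 change of the signal at each time of unloading against 0 h, females left and males right, for the 35 genes in 6 classes separated by lines. Dots mark calls at an adjusted p under 0.05 and grey marks Gla, which the female table does not hold. Npc1 at 48 h in females has the darkest red (1.97).

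Among the cathepsins and peptidases, 3 of 7 were called higher, in females at 24, 48 and 72 h and in males at 24 and 48 h: Ctsl, Ctsd and Ctsf. Of all genes 13.8, 21.0 and 16.8% were called higher in females and 14.8 and 16.3% in males at those times. At 48 h 1 of the 7 was called lower in each sex, beside 17.1% of all genes in females and 14.7% in males. Cathepsins L and F are cysteine proteases and cathepsin D is an aspartic protease of the lysosome. Ctsl, listed on chromosome 13 from 64507151 to 64518705 on the minus strand, had a female signal of 3303 to 9866 with a median of 4332 at 48 h, against 1875 to 2571 with a median of 1977 at 0 h. No unloaded female library at 48 h reached down to the 0 h range, and Ctsl was 2.27-fold higher (log2 change 1.18 ± 0.18, SE, adjusted p = 3.3e-06, limma). In males Ctsl had 4900 to 11957 with a median of 5912 at 48 h, against 3361 to 4170 with a median of 3888 at 0 h. Again the groups did not overlap, and Ctsl was 1.76-fold higher (0.81 ± 0.12, adjusted p = 3.7e-06, limma). Its medians over 0, 24, 48, 72 and 168 h were 1977, 4060, 4332, 2940 and 2850 in females and 3888, 5785, 5912, 3734 and 4235 in males. The male 72 h libraries, at 3253 to 4990, overlapped those at 0 h, with a log2 change of 0.04 ± 0.12 (adjusted p = 0.90, limma), whereas the female ones at 72 h were still called higher (0.70 ± 0.18, adjusted p = 0.0030).

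Ctsd, listed on chromosome 7 from 141929648 to 141941776 on the minus strand, had 9962 to 21674 with a median of 15445 in females at 48 h, against 6625 to 9331 with a median of 7342 at 0 h. The groups did not overlap, and Ctsd was 1.95-fold higher (0.96 ± 0.13, adjusted p = 3.1e-07, limma). It was still 1.84-fold higher in females at 72 h, with 10167 to 18446 and a median of 13485 (0.88 ± 0.13, adjusted p = 2.3e-06), and at 168 h its 6860 to 10428 overlapped the 0 h range (0.06 ± 0.13, adjusted p = 0.84). Males had 17604 to 28276 with a median of 20930 at 48 h, against 13556 to 18359 with a median of 15816 at 0 h (0.43 ± 0.09, adjusted p = 0.00019, limma), and 7 of the 9 libraries at 48 h lay above every library at 0 h.

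Ctsf moved by less. Its female signal was 441 to 778 with a median of 527 at 24 h, against 318 to 512 with a median of 371 at 0 h. Of the unloaded libraries, 5 of 8 lay above every control (0.55 ± 0.11, adjusted p = 0.00029, limma). In males all 9 libraries at 48 h, with 659 to 914 and a median of 794, lay above the 510 to 627 with a median of 608 at 0 h (0.42 ± 0.07, adjusted p = 3.4e-05). The male call at 72 h (0.22 ± 0.07, adjusted p = 0.048) was lost when any of 11 of the 16 libraries was left out, with adjusted p up to 0.13.

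No other peptidase was called higher. Ctsa, the protective protein of neuraminidase and beta-galactosidase, was called lower at 48 h in both females (log2 change -0.23) and males (-0.23). The female call was lost when any of 8 of the 16 libraries was left out, with adjusted p up to 0.082 (limma). Ctsb, a cysteine protease, was called lower in males at 168 h only (-0.21), and leaving out 1 of 15 libraries, control replicate 6, ended that call (adjusted p = 0.055, limma). Ctsz, a carboxypeptidase, stayed between 0.04 and 0.31 in the 8 comparisons and Tpp1, an aminopeptidase, between 0.01 and 0.13, none of them called.

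**Figure D2:**
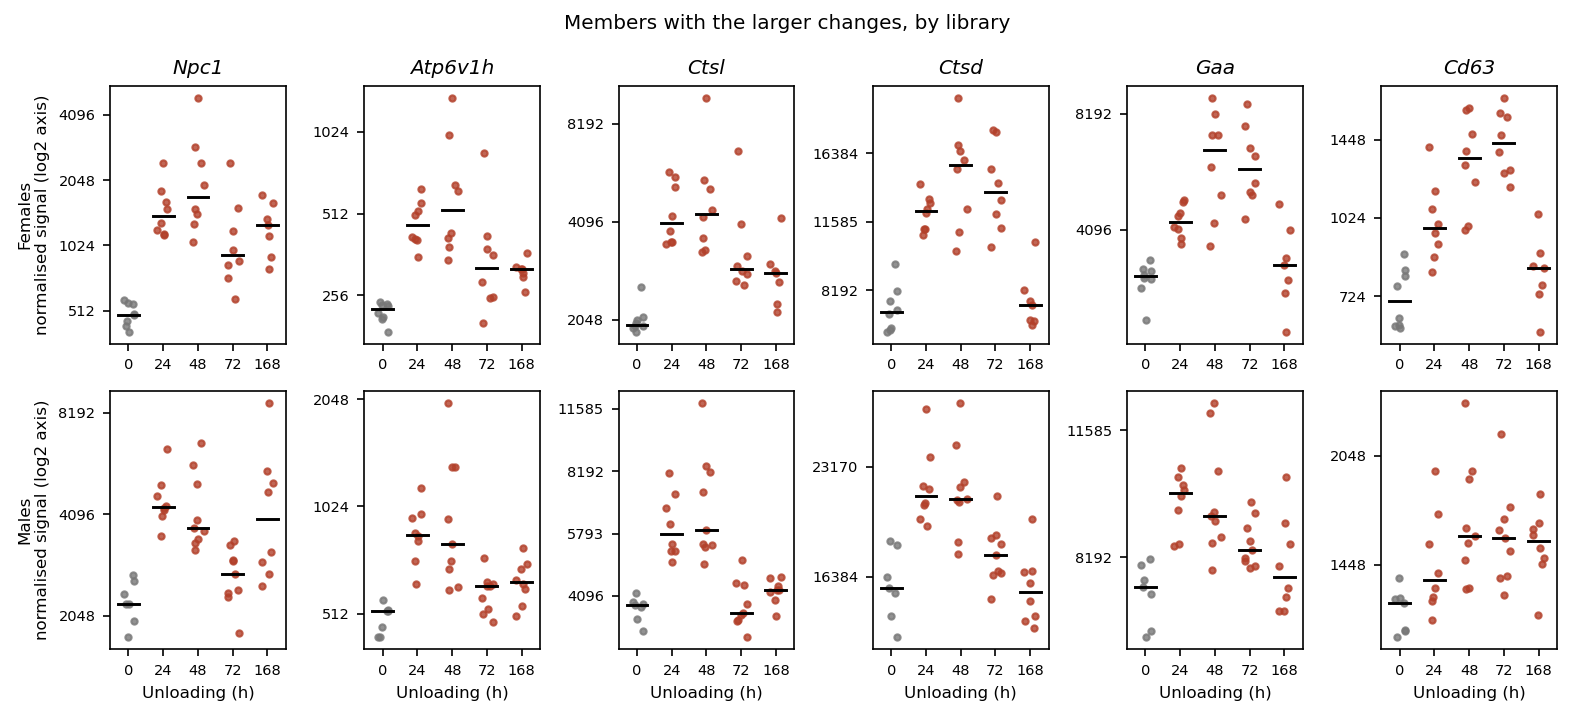
Normalised signal (log2 axis) of 6 members in each library by time of unloading, females above and males below, with a bar at the median. Red points are unloaded mice and grey points control mice at 0 h. In females the medians of Npc1, Atp6v1h and Ctsl are highest at 24 and 48 h, while those of Ctsd, Gaa and Cd63 stay high at 72 h and are near the 0 h range at 168 h.

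Npc1, which exports cholesterol from the lysosome, had the largest change of all members, and Gaa, the acid alpha-glucosidase that degrades glycogen, was the other member of its class called higher in both sexes. Npc1, listed on chromosome 18 from 12322749 to 12369458 on the minus strand, had 1062 to 4921 with a median of 1721 in females at 48 h, against 408 to 576 with a median of 491 at 0 h. Groups did not overlap, and Npc1 was 3.93-fold higher (log2 change 1.97 ± 0.25, SE, adjusted p = 1.4e-07, limma). All unloaded female libraries at each of the 4 times lay above every control library, with medians of 1405, 1721, 925 and 1274 at 24, 48, 72 and 168 h. Males had 3201 to 6677 with a median of 3717 at 48 h, against 1764 to 2702 with a median of 2221 at 0 h. These groups did not overlap either (1.86-fold, 0.90 ± 0.19, adjusted p = 0.00030).

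In males the Npc1 signal of 1817 to 3420 at 72 h overlapped the controls (0.25 ± 0.19, adjusted p = 0.44, limma), and at 168 h, within the shared run of numbers, it was called higher, with 2511 to 8762 and a median of 3965 (0.86 ± 0.19, adjusted p = 0.0012). Of its libraries, 7 of 8 lay above every control. The direct difference between 168 h and 72 h in males was 0.61 ± 0.18 and not called (adjusted p = 0.11). In females Npc1 at 168 h was 2.47-fold higher than at 0 h (1.30 ± 0.26, adjusted p = 0.00065), so it was called at 168 h in both sexes, as only Mcoln1 and Atp6v1d also were.

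Gaa, listed on chromosome 11 from 119158713 to 119176281 on the plus strand, had 3718 to 9010 with a median of 6582 in females at 48 h, against 2391 to 3429 with a median of 3105 at 0 h. It was 1.99-fold higher without overlap (0.99 ± 0.15, adjusted p = 3.4e-06, limma), and 1.98-fold higher at 72 h with 4376 to 8668 (0.98 ± 0.15, adjusted p = 6.5e-06). Gaa at 168 h had 2229 to 4778 and was not called (0.12 ± 0.16, adjusted p = 0.71). Males had 7912 to 12475 with a median of 9178 at 48 h, against 6582 to 8143 with a median of 7551 at 0 h. Of the unloaded libraries, 8 of 9 lay above every control (0.37 ± 0.08, adjusted p = 0.00044).

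Of the other glycosidases and lipid-handling genes, 3 were called lower at least once and Neu1 was called higher once. Aga, which splits the sugar from asparagine in glycoproteins, had 111 to 196 with a median of 157 in females at 48 h, against 213 to 288 with a median of 243 at 0 h. It was lower without overlap at 48 h (-0.65 ± 0.11, adjusted p = 9.4e-06, limma) and at 72 h (-0.53 ± 0.11, adjusted p = 0.00027), and in males its change at 48 h was -0.05 ± 0.10 (adjusted p = 0.74). Gla, the alpha-galactosidase, is measured in males only, where it had 79.1 to 141 with a median of 112 at 48 h, against 112 to 189 with a median of 153 at 0 h, and 4 of 9 lay below every control. It was called lower at 24 h (-0.44) and 48 h (-0.40), the second call ending without control replicate 1 (adjusted p = 0.063, limma) or 48 h replicate 2 (0.057). Psap, the precursor of the saposins that help glycosidases act on lipids, was called lower in males at 168 h (-0.19). Neu1, a sialidase, was called higher in males at 48 h (0.16), and 11 of 16 single libraries ended that call when left out, with adjusted p up to 0.12. Hexa, a subunit of beta-hexosaminidase, and Npc2, the soluble partner of Npc1, were not called in any of the 8 comparisons, with changes between -0.09 and 0.17 for Hexa and between -0.05 and 0.21 for Npc2.

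Of the 5 membrane proteins, the calcium channel gene Mcoln1 was called higher at every time in both sexes, and Cd63, a tetraspanin of late endosomes and lysosomes, rose furthest. Cd63 had 1173 to 1743 with a median of 1426 in females at 72 h, against 628 to 873 with a median of 707 at 0 h, without overlap and 1.98-fold higher (log2 change 0.99 ± 0.12, SE, adjusted p = 1.2e-07, limma). Its female medians at 0, 24, 48, 72 and 168 h were 707, 977, 1335, 1426 and 821, with 168 h no longer called (0.16 ± 0.12, adjusted p = 0.48). Males had 1343 to 2418 with a median of 1587 at 48 h, against 1152 to 1390 with a median of 1282 at 0 h. Of the unloaded libraries, 7 of 9 lay above every control (0.41 ± 0.10, adjusted p = 0.0025). The male calls at 72 h (0.34) and 168 h (0.30) were lost when any of 5 of 16 and 8 of 15 libraries was left out, with adjusted p up to 0.060 and 0.077.

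Mcoln1 changed by a similar, small amount throughout. In females its signal was 434 to 667 with a median of 553 at 72 h, against 359 to 501 with a median of 419 at 0 h. Of the unloaded libraries, 6 of 8 lay above every control (0.39 ± 0.09, adjusted p = 0.00080, limma). In females the changes at 24, 48 and 168 h were 0.36, 0.22 and 0.31. Males had 858 to 1127 with a median of 958 at 48 h, against 682 to 929 with a median of 805 at 0 h, with 7 of 9 above every control (0.32 ± 0.06, adjusted p = 1e-04), and changes of 0.30, 0.27 and 0.26 at 24, 72 and 168 h. The female call at 48 h (adjusted p = 0.043) was lost when any of 9 of the 16 libraries was left out, with adjusted p up to 0.099, and that at 168 h without control replicate 1 or 4 or 168 h replicate 5 (up to 0.070).

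Lamp1 and Lamp2 encode the most abundant glycoproteins of the lysosomal membrane. Lamp1 was called only in females at 72 h, with 7948 to 10783 and a median of 8223, against 6216 to 8187 and a median of 6573 at 0 h, and 6 of 8 above every control (0.35 ± 0.08, adjusted p = 0.00075, limma). In males Lamp1 had 15244 to 17909 with a median of 16198 at 48 h, against 13700 to 16355 with a median of 15550 at 0 h, a change of 0.08 ± 0.05 (adjusted p = 0.22). Lamp2 was called higher at 48 h in females (0.63) and males (0.29). Scarb2, a membrane protein that acts as a sorting receptor for a lysosomal enzyme, was called lower in males at 24 h (-0.16), a call that 10 of 15 single libraries ended when left out, with adjusted p up to 0.14.

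Tfeb was called higher at all 4 times in females and at 24, 48 and 72 h in males, whereas Tfe3 was not called in any comparison. Tfeb had 1310 to 2472 with a median of 1672 in females at 72 h, against 952 to 1458 with a median of 1111 at 0 h. Of the unloaded libraries, 7 of 8 lay above every control (log2 change 0.63 ± 0.12, SE, adjusted p = 7.9e-05, limma). At 48 h the female Tfeb signal was 1339 to 1761 with a median of 1475 (0.43 ± 0.12, adjusted p = 0.0033). Males had 1714 to 2482 with a median of 2336 at 48 h, against 1376 to 2134 with a median of 1597 at 0 h. Of the unloaded libraries, 6 of 9 lay above every control (0.42 ± 0.13, adjusted p = 0.012). In males at 168 h the range of 1080 to 2451 spanned that of the controls (0.10 ± 0.13, adjusted p = 0.61).

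Several Tfeb calls lay near the threshold. The male call at 24 h (0.39) was lost without control replicate 2 or 4 or 24 h replicate 5 or 6 (adjusted p 0.053 to 0.055, limma), with changes of 0.34 to 0.36. That at 72 h (0.42) was lost without control replicate 2, 4 or 6 or 72 h replicate 1 (0.053 to 0.069), with changes of 0.38 to 0.41. The female call at 168 h (0.40) was lost without control replicate 1 or 3 or 168 h replicate 1 or 7 (0.056 to 0.10), with changes of 0.30 to 0.37. Tfe3 had 159 to 269 with a median of 180 in females at 48 h, against 152 to 211 with a median of 173 at 0 h (0.12 ± 0.12, adjusted p = 0.47). Males had 375 to 458 with a median of 410 at 48 h, against 333 to 438 with a median of 392 at 0 h (0.08 ± 0.07, adjusted p = 0.41), so the groups overlapped in both sexes.

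**Figure D3:**
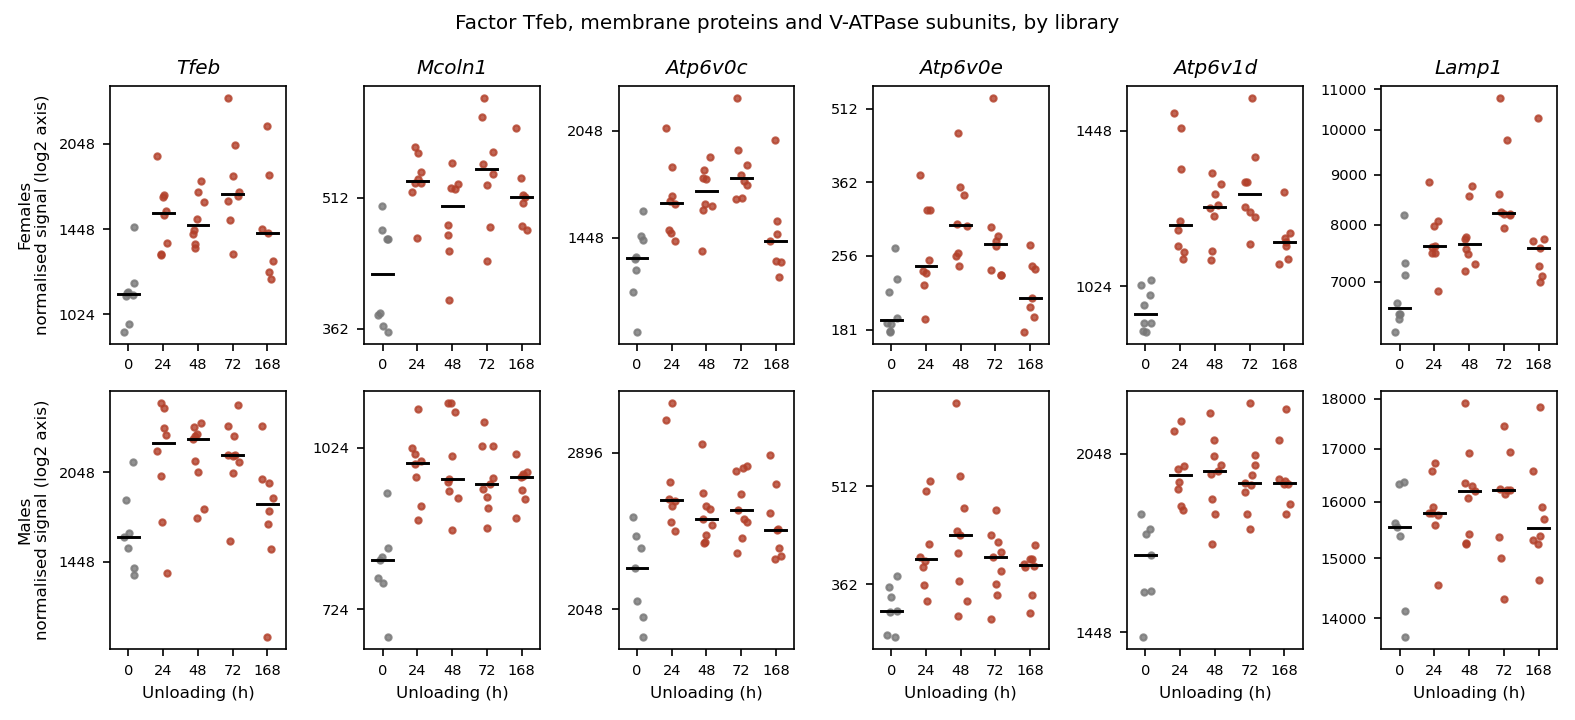
Normalised signal (log2 axis) of Tfeb, Mcoln1, 3 V-ATPase subunits and Lamp1 in each library by time of unloading, females above and males below, with a bar at the median. Red points are unloaded mice and grey points control mice at 0 h. Unloaded female libraries of Atp6v1d, at 1077 to 1558, all lie above the control libraries at 925 to 1039.

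Subunits of the V-ATPase changed unevenly. In the V1 sector 5 of 6 genes were called higher in females at 48 h and 4 of 6 in males at 48 h. Among the 7 V0 and accessory genes 3 were called higher in females and 2 in males at that time. Of all genes 21.0% were called higher in females and 16.3% in males at 48 h, and the sectors were not compared by a test. No V-ATPase member was called lower against 0 h, beside 17.1% of all genes lower in females and 14.7% in males at 48 h. Atp6v1h, the regulatory H subunit, stood out in size. It is listed on chromosome 1 from 5140241 to 5232753 on the plus strand and had 347 to 1368 with a median of 527 in females at 48 h, against 188 to 243 with a median of 228 at 0 h. Unloaded and control libraries did not overlap, and Atp6v1h was 2.62-fold higher (log2 change 1.39 ± 0.22, SE, adjusted p = 6.1e-06, limma). Males had 595 to 1995 with a median of 803 at 48 h, against 440 to 559 with a median of 521 at 0 h, also without overlap (1.86-fold, 0.89 ± 0.16, adjusted p = 5.8e-05). At 72 h the female call (0.61 ± 0.22, adjusted p = 0.032) was lost without control replicate 2 or 72 h replicate 3, 4 or 7 (0.053 to 0.11), and males had 0.24 ± 0.16 (adjusted p = 0.38).

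Atp6v1d, the D subunit of the central rotor, had smaller changes and was called at every time in both sexes. Its female signal at 48 h was 1086 to 1318 with a median of 1223, against 925 to 1039 with a median of 963 at 0 h, without overlap (0.31 ± 0.07, adjusted p = 0.00046, limma). In males at 168 h it was 1820 to 2233 with a median of 1936, against 1434 to 1820 with a median of 1683 at 0 h. All 8 unloaded libraries lay above every control (0.25 ± 0.06, adjusted p = 0.0016). The female call at 168 h (0.23, adjusted p = 0.036) was lost when any of 8 of the 15 libraries was left out, with adjusted p up to 0.091.

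The catalytic subunit gene Atp6v1a was called only in females at 48 h (0.70 ± 0.18, adjusted p = 0.0021, limma), with 0.23 ± 0.09 in males at that time (adjusted p = 0.061). Atp6v1c1 and Atp6v1e1, subunits of the stalks that join V1 to V0, were called higher at 24, 48 and 72 h in females, with changes of 0.29, 0.36 and 0.29 for Atp6v1c1 and 0.34, 0.22 and 0.24 for Atp6v1e1. In males both were called at 24 and 48 h, with 0.20 and 0.25 for Atp6v1c1 and 0.22 and 0.18 for Atp6v1e1. Single libraries ended the calls of Atp6v1e1 in females at 48 h (9 of 16, adjusted p up to 0.10) and 72 h (4 of 16, up to 0.066) and of Atp6v1c1 in males at 24 h (3 of 15, up to 0.064). Atp6v1b2, the B2 isoform of the nucleotide-binding subunit, was not called in any of the 8 comparisons.

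In the membrane sector Atp6v0c, which forms the proteolipid ring, had 1642 to 2280 with a median of 1758 in females at 72 h, against 1066 to 1579 with a median of 1355 at 0 h. No library overlapped (0.44 ± 0.09, adjusted p = 3e-04, limma), and at 24 and 48 h the changes were 0.29 and 0.32. Males had 2433 to 3231 with a median of 2608 at 24 h, against 1924 to 2512 with a median of 2242 at 0 h, with 6 of 8 above every control (0.29 ± 0.07, adjusted p = 0.00078). Male Atp6v0c was also called at 48 h (0.20) and 72 h (0.23), calls that ended without control replicate 2 (adjusted p 0.055 and 0.057) and, at 72 h, without control replicate 4 (0.053).

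Atp6v0e, a small subunit of the membrane sector, had 244 to 456 with a median of 296 in females at 48 h, against 179 to 265 with a median of 189 at 0 h. Among its unloaded libraries, 5 of 8 lay above every control (0.60 ± 0.15, adjusted p = 0.0013, limma). Males had 324 to 686 with a median of 431 at 48 h, against 300 to 373 with a median of 330 at 0 h (0.38 ± 0.11, adjusted p = 0.0058). It was also called in females at 72 h (0.49) and in males at 24 h (0.30), where the call was lost in 5 of 15 leave-one-out fits with adjusted p up to 0.081. Atp6v0d1, which links the ring to the rotor, was called at 48 h (0.25) and 72 h (0.26) in females, where 9 and 10 of 16 single libraries ended the call (adjusted p up to 0.079 and 0.088), and at 24 h in males (0.21). Atp6v0b, another ring subunit, was called only in females at 24 h (0.29), and 7 of 16 single libraries ended that call (adjusted p up to 0.10). Atp6v0a1, an isoform of the subunit beside the ring, and the accessory proteins Atp6ap1 and Atp6ap2 were not called against 0 h.

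In males at 72 h against 48 h, 4 of 35 members were lower and 0 higher, beside 5.36% of all genes lower and 3.45% higher. They were Ctsl (log2 change -0.78 ± 0.11, adjusted p = 0.00028, limma), Atp6v1h (-0.65 ± 0.15, adjusted p = 0.0065), Npc1 (-0.65 ± 0.17, adjusted p = 0.016) and Ctsd (-0.29 ± 0.08, adjusted p = 0.020). In females the same 72 h against 48 h comparison called 0 of 34 members, with 0.352% of all genes higher and 0.244% lower, and 6 members had an unadjusted p under 0.05. Female Npc1 had -0.90 ± 0.25 (adjusted p = 0.088) and Atp6v1h -0.77 ± 0.22 (adjusted p = 0.099). In males 8 of the 9 libraries at 48 h are in a run of title numbers that holds none at 72 h, and in females the 72 h and 48 h libraries differ in run and in depth, so time and run cannot be told apart in either comparison.

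Between the last times in females, Gaa, Cd63 and Ctsd were lower and Aga, the gene called lower at 48 and 72 h, was higher. At 168 h against 72 h, Gaa (-0.86 ± 0.16, adjusted p = 0.0010, limma), Cd63 (-0.83 ± 0.12, adjusted p = 0.00012) and Ctsd (-0.82 ± 0.13, adjusted p = 0.00022) were lower and Aga was higher (0.52 ± 0.11, adjusted p = 0.0044), so 3 of 34 were lower and 1 higher beside 2.22% and 1.34% of all genes. Female Npc1 in that comparison had 0.23 ± 0.26 and Ctsl -0.24 ± 0.19, neither called. At 48 h against 24 h, Gaa (0.49) and Cd63 (0.38) were higher and Aga (-0.43) and Ctsa (-0.31) lower, 2 and 2 of 34, beside 3.12% of all genes higher and 3.54% lower. The female libraries at 168 h and 72 h differ in title numbers and in depth, as do those at 48 h and 24 h. Time and numbering cannot be told apart in either comparison. Between 72 h and 24 h in females, whose libraries share a run of numbers and have similar depth, Gaa (0.48), Cd63 (0.51) and Atp6v0a1 (0.27) were higher and 0 members lower, beside 6.41% and 5.85% of all genes.

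Male 48 h and 24 h libraries did not differ in any member at an adjusted p under 0.05 by limma (5 of 35 at an unadjusted p under 0.05), where 0% of all genes were called higher and 0.0156% lower. Neither did male 168 h and 72 h (4 of 35 at an unadjusted p under 0.05), where 0.124% of all genes were called higher and 0.171% lower.

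The change in females was set against the change in males in a joint fit of the 34 members and all other genes found in both tables. At 72 h it was larger in females for 3 of 34 members and smaller for 0, beside 1.64% of all genes larger and 0.803% smaller. Gaa differed by 0.79 ± 0.17 (adjusted p = 0.0074, limma), with log2 changes of 0.98 in females and 0.20 in males. Ctsd differed by 0.74 ± 0.15 (adjusted p = 0.0043), with 0.88 in females and 0.14 in males, and Cd63 by 0.65 ± 0.16 (adjusted p = 0.015), with 0.99 in females and 0.34 in males. At 48 h the change of Aga was the lower one in females, by a difference of -0.60 (adjusted p = 0.038), with -0.65 in females and -0.05 in males, as the 1 of 34 members called, beside 0.0638% of all genes smaller and 0.237% larger. No member was called at 24 h, where 0.0365% of all genes had a larger and 0.0182% a smaller change in females and 1 member had an unadjusted p under 0.05, or at 168 h. In all genes at 168 h 0.00912% had a larger and 0.00912% a smaller change, and 0 members had an unadjusted p under 0.05. Npc1, whose female change was nominally the larger at all 4 times, was not called as different (at 72 h 0.82 ± 0.31, adjusted p = 0.14). Sexes were sequenced with different numbering, and at 72 h the female libraries were the shallower ones, so sex and library set cannot be told apart.

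**Figure D4:**
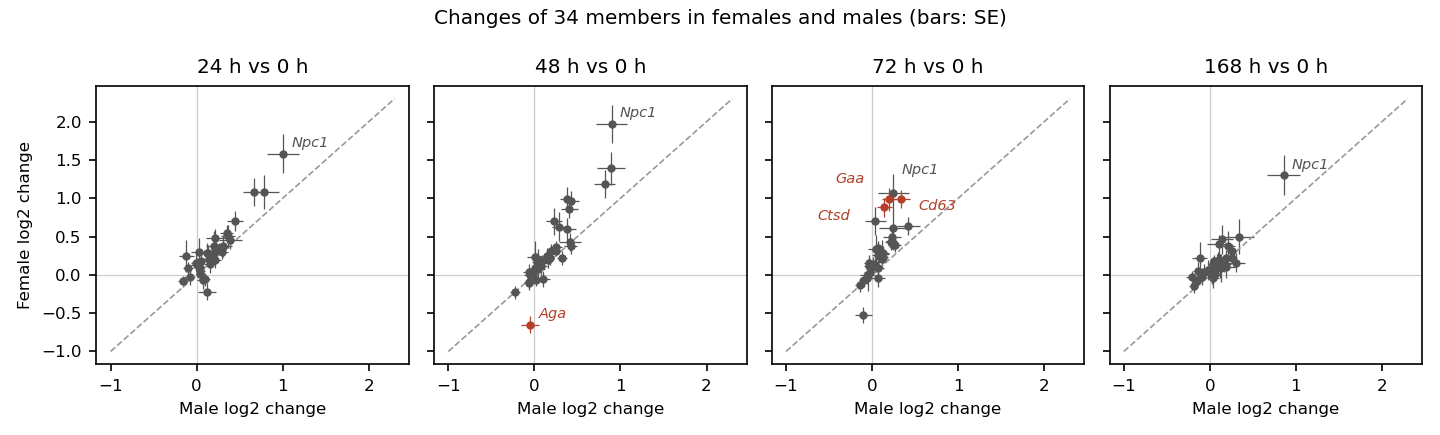
Log2 change against 0 h in females (vertical axis) and males (horizontal axis) for the 34 members in both tables, 1 panel per time, with SE bars. The dashed line marks equal changes and red marks members whose change differed between the sexes at an adjusted p under 0.05, which are Aga at 48 h and Ctsd, Gaa and Cd63 at 72 h.

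With the run of title numbers as a covariate in males, 0 of 35 members were called by limma at 24, 48 or 72 h. In that fit few links tie the early times to 0 h, the median SE over all genes was 0.30, 0.28 and 0.17 at those times, and 4, 37 and 557 of 12853 genes were called. Npc1 had 0.51 ± 0.53 at 24 h and 0.45 ± 0.50 at 48 h (adjusted p = 0.82 and 0.80, limma). Ctsl had 0.43 ± 0.35 and 0.62 ± 0.32 at those times (adjusted p = 0.73 and 0.50). The changes of Npc1 and Ctsl were smaller than without the covariate. So were those of other members, among them Ctsd (0.10 against 0.45 at 24 h), Lamp2 (0.06 against 0.29 at 48 h) and Atp6v1h (0.40 against 0.79 at 24 h). Some members had larger changes at 24 and 48 h. They include Tfeb with 0.72 ± 0.37 and 0.73 ± 0.35 (adjusted p = 0.51 and 0.42, limma), Ctsf with 0.50 ± 0.21 and 0.56 ± 0.20 (0.39 and 0.22) and Gla with -0.61 ± 0.40 and -0.57 ± 0.37 (0.64 and 0.60). All 6 male calls at 168 h were kept, but all male 0 h and 168 h libraries share a run. The covariate could therefore not move those changes. The 48 h comparison in females lies within a single inferred run and at similar depth, and no covariate was fitted there. It holds 17 higher and 2 lower calls among the 34 members. Quantile normalisation ended the calls of Mcoln1, Atp6v0c, Atp6v0d1 and Atp6v1e1 in it (adjusted p 0.09 to 0.40, limma). Library total scaling ended that of Ctsa (0.12).

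Other genes of the lysosome are read against the shares of all genes at 48 h, which were 21.0% higher and 17.1% lower in females and 16.3% higher and 14.7% lower in males. Among hydrolases that are not members, 3 of 30 were called higher and 11 lower in females at 48 h, and 3 of 31 higher and 5 lower in males at 48 h, where the lower share in males is near that of all genes. Gusb, the beta-glucuronidase, was lower (-0.70 in females and -0.45 in males at 48 h), as was Ctso, a cathepsin (-0.60 and -0.36). Of 24 other membrane and sorting genes, 6 were higher and 4 lower in females and 8 higher and 4 lower in males at 48 h. Slc38a9, an amino acid sensor of the lysosome, was higher (0.44 in females and 0.37 in males), Laptm4b was lower (-0.81 and -0.72), and Ostm1, a partner of a lysosomal chloride transporter, was lower in females (-0.41), with -0.18 in males not called.

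Further V-ATPase subunits and assembly factors had 3 of 12 higher and 0 lower in females and 2 of 13 higher and 1 lower in males at 48 h, higher shares near the 21.0% and 16.3% of all genes. Tmem199, an assembly factor, had 0.42 in females and 0.34 in males, Dmxl2, a regulator of the pump, had 0.80 and 0.38, and Vma21, an assembly chaperone, had 0.50 in females and 0.23 in males, the last not called. Among genes of nutrient sensing at the lysosome, 4 of 13 were higher and 0 lower in females and 3 of 14 higher and 1 lower in males at 48 h, beside the same shares of all genes. Flcn, the folliculin that acts on the Rag GTPases, had 0.67 in females and 0.41 in males, Lamtor3, part of the Ragulator complex, had 0.49 and 0.27, and Rragc, a Rag GTPase, had 0.31 and 0.15, all called higher.

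Macrophages carry many lysosomes, and at most 1 of their markers was called in any comparison with 0 h. Of 11 macrophage markers measured, 1 was called higher and 0 lower in females at 48 h and 0 of 11 in males at 24, 48, 72 or 168 h by limma. Their summed signal was 1857 to 3122 with a median of 2667 in females at 48 h, against 1763 to 4012 with a median of 2807 at 0 h. In males it was 3984 to 8485 with a median of 5096 at 48 h, against 3562 to 9029 with a median of 5954 at 0 h. None of the 11 was at 0 throughout a group, and none of 6 neutrophil markers is listed in either table. Fibroblast markers were lower in females, 5 of 7 at 48 h and 5 of 7 at 72 h, beside 17.1% and 13.2% of all genes lower. At 24 h and at 168 h 3 of 7 were lower in females, beside 10.9% and 4.38% of all genes. In males 1 of 7 of these markers was higher and 0 lower at 48 h, beside 16.3% of all genes higher. At 168 h 2 of 7 were lower and 0 higher in males, beside 11.5% of all genes lower. Their female summed signal was 10819 to 16543 with a median of 13628 at 48 h, against 13795 to 26873 with a median of 18515 at 0 h. Of 6 endothelial markers 0 were higher and 1 lower in females and 2 higher and 1 lower in males at 48 h, and of 5 adipocyte markers 1 was higher and 0 lower in females and 0 higher and 1 lower in males. The part of these markers in the results was not tested. In whole muscle, fewer cells of a type and less RNA per cell cannot be told apart.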

How the data were processed

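RNA from the gastrocnemius was sequenced in 39 female and 41 male libraries. The deposited expression values are a signal, estimated reads per gene that the authors divided by a size factor per library. This was read from the values, which hold decimals. Their library totals were 12.78 to 19.28 M in females and 33.08 to 39.43 M in males, narrower ranges than those of the estimated depth. The authors' deposited comparison tables give p-values adjusted by FDR step up and a linear ratio of each time over 0 h. Per the submitters' processing notes, which give no roles, the tools were Partek, STAR 2.7.8a and DESeq2 and the builds mm39 and mm10, and filters are not given in the sources used here. The lowest maximum of any gene is 100.0 in females and 100.02 in males, so genes of low signal are not in these tables.

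Because a signal is not a count, log2(signal + 1) was tested with limma 3.58.1 in R 4.3.3 (moderated variances with a trend on the mean, robust, two-sided, Benjamini-Hochberg over all genes of a table, called at an adjusted p under 0.05), with 1 fit of 5 groups per sex and a joint fit of 10 groups on 10964 shared genes. Fold changes on this scale slightly understate those of low genes. The fits were run on simulated data with known changes. Those values were drawn without effects of run or depth, so the simulation does not bear on such effects. Depth was estimated from the value of 1 read. In low genes 54.1 to 71.8% of values were whole within 0.03 reads, against 6% by chance, so reads were not recovered and no count test was run. Tables and figures used Python 3.11.15, numpy 2.4.6, pandas 2.3.3 and matplotlib 3.10.9. No pair of libraries was identical.

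The 35 genes, the other gene lists and the tests were chosen with earlier results of these data known. All 35 are named. Values are given in full for the 2 members of each class with the smallest adjusted p against 0 h in each sex, and Aga and Gla were added after their values were seen. From each other list the 3 genes with the smallest adjusted p among those called are named, except 1 result that is not reported here. Gene positions are as the deposited tables list them. Of 12831 genes matched to an mm10 annotation 2.49% have the same start and 98.3% the same length if the last listed coordinate is exclusive, so the positions are not those of mm10. The other build named in the notes is mm39, but no source used here says that the positions are of it. Promoter windows are RefSeq GRCm38.p6 and were not combined with those positions. The design text states 8 mice per group, where the labels give 7 to 9 libraries.

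Alternatives were a pseudocount of 10, a mean signal of at least 200, library total scaling, quantile normalisation, moderation without trend or robustness, array weights, leaving out the libraries that stand apart, the run of title numbers as a covariate or a split, and leaving out each library in turn.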

Additional observations from a re-analysis of the deposited data

Results flagged for a closer look

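Dixon's 95% limit was applied to the unlogged signal in groups of libraries, over the members described in full. Chance puts about 5% of groups beyond it if groups are independent and values are normally spread. The groups here share libraries between genes, so that 5% is only a rough guide. In 16 of 140 groups the highest or lowest library stood further from the rest than the limit allows. Ctsl had such a high library in 5 groups. They were female 0 h replicate 7 with a signal of 2571, female 48 h replicate 7 with 9866, female 72 h replicate 4 with 6747, female 168 h replicate 4 with 4215, and male 48 h replicate 2 with 11957.

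Female 72 h replicate 4 was also highest for Atp6v0e (539) and Atp6v1h (855). Female 168 h replicate 4 was highest for Ctsd (10428). Female 168 h replicate 7, whose expression also stands apart from its group, was highest for Lamp1 (10288), Atp6v0c (1988) and Atp6v1d (1262). Atp6v0c was highest in female 72 h replicate 5 (2280), another library that stands apart, and in male 48 h replicate 2 (2951). Further single libraries were female 0 h replicate 2 for Tfeb (1458, high), male 72 h replicate 4 for Cd63 (2191, high) and male 168 h replicate 2 for Tfe3 (309, low).

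Changes against 0 h differed between females and males, by the joint limma fit, for 4 members. At 72 h the female minus male difference of the log2 changes was 0.74 for Ctsd, 0.79 for Gaa and 0.65 for Cd63, and at 48 h it was -0.60 for Aga. The sexes also differ in library numbering and, at 72 h, in depth, and neither part was tested.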

How the results depend on the processing

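No paired analysis was made, because each library is listed as a separate sample and no label pairs libraries. Of the 100 called changes of members, 100 kept their call with a pseudocount of 10, 98 of 98 with a mean signal of at least 200, 99 with plain moderation, 98 with array weights, 89 with quantile normalisation and 88 with library total scaling. Without the libraries that stand apart 53 of 54 female calls were kept (Mcoln1 at 48 h had an adjusted p of 0.051, limma). With the run of title numbers as a covariate, 0 of the 40 male calls at 24, 48 and 72 h were kept. All 6 at 168 h were, where the covariate could not move the changes because 0 h and 168 h share a run. None of the called changes reversed in sign under these alternatives or when a library was left out, and 76 of the 100 kept their call whichever library was left out.

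Counts of members moved as follows. Higher members at 168 h numbered 11 with array weights and 2 with quantile normalisation in females (4 in the report) and 8 with array weights in males (4 in the report). With the numbering covariate 0 were higher in males at 24, 48 and 72 h and 0 lower at 24 and 48 h. Male 72 h libraries in the run of 0 h gave 0 higher and those outside it 3 (6 in the report), and array weights gave 1 lower. Lower members numbered 1 with library total scaling in females at 48 h, 4 with quantile normalisation in males at 168 h, and 1 in males at 24 and at 48 h with a mean of at least 200, a minimum that removes Gla. For the difference between the sexes, leaving out the libraries that stand apart gave 6 larger and 1 smaller in females at 72 h and 0 smaller at 48 h, and library total scaling gave 0 smaller at 48 h. Apart from that minimum, the cause was not tested.

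When each library was left out in turn, higher members numbered 13 to 17, 14 to 19, 14 to 18 and 1 to 4 in females and 12 to 15, 15 to 18, 2 to 6 and 3 to 6 in males at 24, 48, 72 and 168 h. Lower members numbered 0 to 0, 1 to 2, 1 to 1 and 0 to 0 in females and 1 to 2, 1 to 2, 0 to 0 and 1 to 3 in males. The female count at 168 h was 1 without control replicate 1 and 2 without control replicate 4 or 168 h replicate 1 or 7. The male count at 72 h was 3 without control replicate 2 or 72 h replicate 1 and 2 without control replicate 4. What the lower depth of the female libraries at 24 and 72 h did to the calls was not tested.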
